A study of Arabidopsis thaliana with 12 samples.

Results

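The comparison described here set the transcriptomes of flu/ex1/ydl1 seedlings against those of flu/ex1 seedlings after 60 min of light. The plants were Arabidopsis thaliana grown in soil for 6 d under continuous light, moved to darkness for 4 h and then returned to light. Both genotypes carried the flu and ex1 mutations, so the ydl1 mutation was the stated difference between them. The sources used here give neither the locus nor the nature of the ydl1 allele, nor whether it was outcrossed. Libraries were assigned by the light time in the name of each deposited count table, which placed 4 of the 12 libraries of the series at 60 min, namely flu/ex1/ydl1 replicates 1 and 2 and flu/ex1 replicates 1 and 3. The other 8 libraries were the same genotypes at 0 min and 30 min, 2 per group. The series asked, by its title, whether YDL1 holds back the expression changes that singlet oxygen induces.

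In the flu mutant the brake on tetrapyrrole synthesis is lost, and protochlorophyllide, a chlorophyll precursor, accumulates in darkness. On return to light this pigment acts as a photosensitiser and generates singlet oxygen inside the plastid. EXECUTER1 (EX1) is a plastid protein that relays the singlet oxygen signal to the nucleus, where flu plants then induce a broad set of stress genes. The ex1 mutation weakens that nuclear response while the pigment still accumulates.

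The 2 records of light time disagreed. For 8 of the 12 libraries the time in the sample label was not the time in the name of the deposited table. Of the libraries used here, flu/ex1/ydl1 replicate 1 and flu/ex1 replicate 1 had 60 min in both records, while flu/ex1/ydl1 replicate 2 and flu/ex1 replicate 3 were labelled 30 min. With groups taken from the labels, edgeR's quasi-likelihood test called 0 genes at 60 min, DESeq2 called 312, and 104 of 104 named genes that passed here lost their call in edgeR. Every value below therefore holds for the file-name times, and which record is right was not tested. With those 2 doubtfully timed libraries left out, 1 library per genotype remained at 60 min. Counts given below for that fit take their spread from the libraries at 0 min and 30 min, most of which had disagreeing records too. Between the 2 remaining libraries, the log2 difference had the same sign as the one reported here in 14990 of 17879 genes.

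The 4 libraries held 7954268 to 11591060 counted reads, and plastid loci took 65.5% to 68.7% of them in flu/ex1/ydl1, against 63.3% in each flu/ex1 library. Counts of nuclear loci were 2469353 and 3762240 in flu/ex1/ydl1, against 4192127 and 4209672 in flu/ex1. Over the 500 most variable genes, the root mean square log2 distance was 1.06 between the flu/ex1/ydl1 replicates, 1.26 between the flu/ex1 replicates and 2.47 to 3.82 between genotypes. These genes were picked by their variance over the same 12 libraries, so a larger distance between groups is partly built in. Over all genes, log2 levels had a Pearson r of 0.937 (flu/ex1/ydl1) and 0.967 (flu/ex1) between replicates, against 0.8575 to 0.901 between genotypes. The labels do not say that replicates were separate cultures, so p-values measure the spread between these libraries, which may be technical. PYK10, a root beta-glucosidase, stood at 49.3 and 46.2 CPM (reads scaled to a common library size) in flu/ex1/ydl1, against 55.7 and 52.8 CPM in flu/ex1, and the other 5 root markers together had 19 counts in each genotype. The 4 seed storage markers had 21 counts in flu/ex1/ydl1 and 8 counts in flu/ex1. In whole seedlings, fewer cells of a type and less RNA per cell cannot be told apart.

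The mutated genes were looked at first. FLU, which restrains the first committed enzyme of tetrapyrrole synthesis, had 29.5 and 38.9 CPM in flu/ex1/ydl1, against 47.5 and 48.7 CPM in flu/ex1, a difference that did not pass the test (log2 fold change -0.49 ± 0.25 SE, adjusted p = 0.271). EX1 had 5.36 and 2.81 CPM in flu/ex1/ydl1, against 4.86 and 4.57 CPM in flu/ex1 (log2 fold change -0.29 ± 0.35, adjusted p = 0.696). EX2, the paralog of EX1, had 8.58 and 8.21 CPM in flu/ex1/ydl1, against 11.2 and 10.7 CPM in flu/ex1 (log2 fold change -0.38 ± 0.26, adjusted p = 0.432). Both genotypes carry the flu and ex1 alleles, so these levels check neither label, and YDL1 itself could not be looked up because no locus is given.

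At 60 min the genotype difference was large and ran mostly upwards. Of 17879 genes tested, 1763 (9.86%) passed at an adjusted p under 0.05 by edgeR's quasi-likelihood test with Benjamini-Hochberg adjustment. Of these, 1525 (8.53%) were higher in flu/ex1/ydl1 and 238 (1.33%) were lower. The genes that rose had a median log2 fold change of 2.02, and 771 of them exceeded 2. The genes that fell had a median of -1.21, and 23 of them lay below -2, while the median of all genes was -0.05. Among those that rose, 1440 were protein-coding loci and 62 long noncoding RNAs. The count fell to 942 when flu/ex1 replicate 1 was left out, of which 925 were among the 1763. The 238 that fell became 52 without flu/ex1 replicate 1, 83 without flu/ex1 replicate 3, 112 without flu/ex1/ydl1 replicate 1 and 384 without flu/ex1/ydl1 replicate 2.

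**Figure D1:**
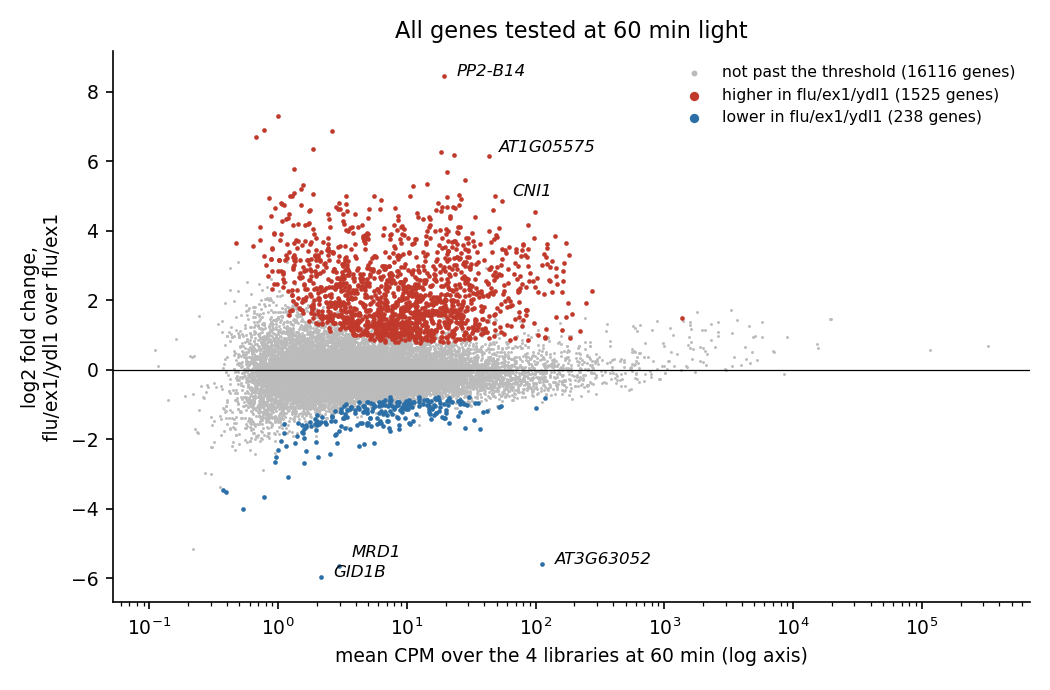
Each point is a gene, placed by its mean level over the 4 libraries at 60 min (CPM, log axis) and its log2 fold change, flu/ex1/ydl1 over flu/ex1. The 1525 genes that rose reach a log2 fold change of 8.45, and the 238 that fell reach -5.98.

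The replicates of each genotype were not level with each other on the genes that rose. Flu/ex1 replicate 3 exceeded flu/ex1 replicate 1 in 1156 of the 1525 genes (75.8%, against 50.4% of all genes). Flu/ex1/ydl1 replicate 2 exceeded replicate 1 in 994 of them (65.2%, against 52.7% of all genes). The higher library in each genotype is the one labelled 30 min. Without flu/ex1 replicate 3, 1292 genes passed (1224 of them among the 1763), and without flu/ex1/ydl1 replicate 2, 1701 passed (1201 among the 1763).

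The 12 largest rises included genes that were close to absent in flu/ex1. PP2-B14, an F-box protein of the phloem protein 2 family, had 30.2 and 47.8 CPM in flu/ex1/ydl1, against 0.126 and 0.0703 CPM in flu/ex1. Its reads at 60 min numbered 798 in flu/ex1/ydl1 and 3 in flu/ex1, a ratio of 426 per scaled library (exact 95% counting interval 145 to 2072). The adjacent loci PP2-B13, of the same family, and AT1G56242, a long noncoding RNA, were also among the 12. PP2-B13 had 23.4 and 68.8 CPM in flu/ex1/ydl1, against 0.316 and 0.984 CPM in flu/ex1 (log2 fold change 6.17 ± 0.57, adjusted p = 3.1e-06). The values of AT1G56242 were 17.1 and 55.9 CPM in flu/ex1/ydl1, against 0.189 and 0.773 CPM in flu/ex1. These loci overlap on opposite strands over 1177 bases, and the strand setting of the read counting is not given in the sources used here, so the reads of one cannot be told apart from those of the other.

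A calcium sensor, a transcription factor and a conjugating enzyme were also among these genes. CML37, a calmodulin-like calcium sensor, had 20.7 and 59.4 CPM in flu/ex1/ydl1, against 0 and 1.62 CPM in flu/ex1 (log2 fold change 5.68 ± 0.81, adjusted p = 0.00011). ZAT11, a C2H2 zinc finger factor, had 37.7 and 72.9 CPM in flu/ex1/ydl1, against 0.252 and 2.32 CPM in flu/ex1 (log2 fold change 5.46 ± 0.61, adjusted p = 1.2e-05). UGT73B5, a glucosyltransferase, had 10.9 and 32.9 CPM in flu/ex1/ydl1, against 0.252 and 0.913 CPM in flu/ex1, though it shares 1866 annotated bases with AT2G15490 on the same strand. Among these 3, both replicate 2 of flu/ex1/ydl1 and replicate 3 of flu/ex1 stood above the other library of their genotype. The loci AT1G05575 (76.5 and 93.6 CPM in flu/ex1/ydl1, against 0.379 and 2.04 CPM in flu/ex1) and AT2G32200 (30.2 and 25.6 CPM in flu/ex1/ydl1, against 0.252 and 1.12 CPM in flu/ex1) rose as well. The remaining 4 rested on 1 or 2 flu/ex1 reads. CYP82C3, a cytochrome P450, had 109 reads in flu/ex1/ydl1 and 1 in flu/ex1 (ratio 175, interval 30.7 to 6962). SBT3.3, a subtilisin-like protease, had 62 reads in flu/ex1/ydl1 and 2 in flu/ex1 (ratio 49.7, interval 13.2 to 419). AT1G09715 had 72 reads in flu/ex1/ydl1 and 1 in flu/ex1, and AT3G22275 had 42 in flu/ex1/ydl1 and 1 in flu/ex1. Genes this low in flu/ex1 entered the test through their level in flu/ex1/ydl1. The call of AT3G22275 was lost without flu/ex1 replicate 1.

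Listed genes known from earlier work to respond to singlet oxygen in flu plants were higher in flu/ex1/ydl1. Of 14 markers listed, AATP1 was left out because the reference did not give its name. Of the other 13, 13 rose, against 8.53% of all genes, and their median log2 fold change was 4.07, against -0.05 over all genes. This list, like the others, was chosen with earlier results of these data known, so its count is not independent of them. PFA-DSP3, an atypical dual-specificity phosphatase, had 18.8 and 22.1 CPM in flu/ex1/ydl1, against 0.505 and 0.773 CPM in flu/ex1 (log2 fold change 4.99 ± 0.35, adjusted p = 6.9e-07). ERF6, an ethylene response factor, had 70.6 and 117 CPM in flu/ex1/ydl1, against 1.14 and 4.85 CPM in flu/ex1 (log2 fold change 4.98 ± 0.50, adjusted p = 5.1e-06). CNI1, a RING ubiquitin ligase, had 96.5 and 114 CPM in flu/ex1/ydl1, against 2.15 and 5.13 CPM in flu/ex1 (log2 fold change 4.86 ± 0.35, adjusted p = 6.9e-07). In all 3 the genotypes lay far apart, with at least an order of magnitude between the nearest libraries. AGC2-1 (OXI1), an oxidative-signal-inducible protein kinase, had 31.3 and 46.9 CPM in flu/ex1/ydl1, against 0.189 and 2.95 CPM in flu/ex1. BAP1 and BAP2, inhibitors of cell death, had log2 fold changes of 4.39 and 4.61. SIB1, a plastid and nuclear protein that binds sigma factors and WRKY33, had 21.8 and 53.8 CPM in flu/ex1/ydl1, against 1.32 and 3.3 CPM in flu/ex1. The smallest difference was that of EDS1, a lipase-like immune regulator, with 8.94 and 12.7 CPM in flu/ex1/ydl1, against 2.84 and 3.37 CPM in flu/ex1 (log2 fold change 1.82 ± 0.29, adjusted p = 0.00027). The higher library of each genotype was the same one throughout, flu/ex1/ydl1 replicate 2 and flu/ex1 replicate 3 in 13 of 13 genes. In the 4 fits that each left out 1 of the 60 min libraries, 13 of 13 still passed, and 12 of 13 did with the 2 libraries timed alike in both records.

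**Figure D2:**
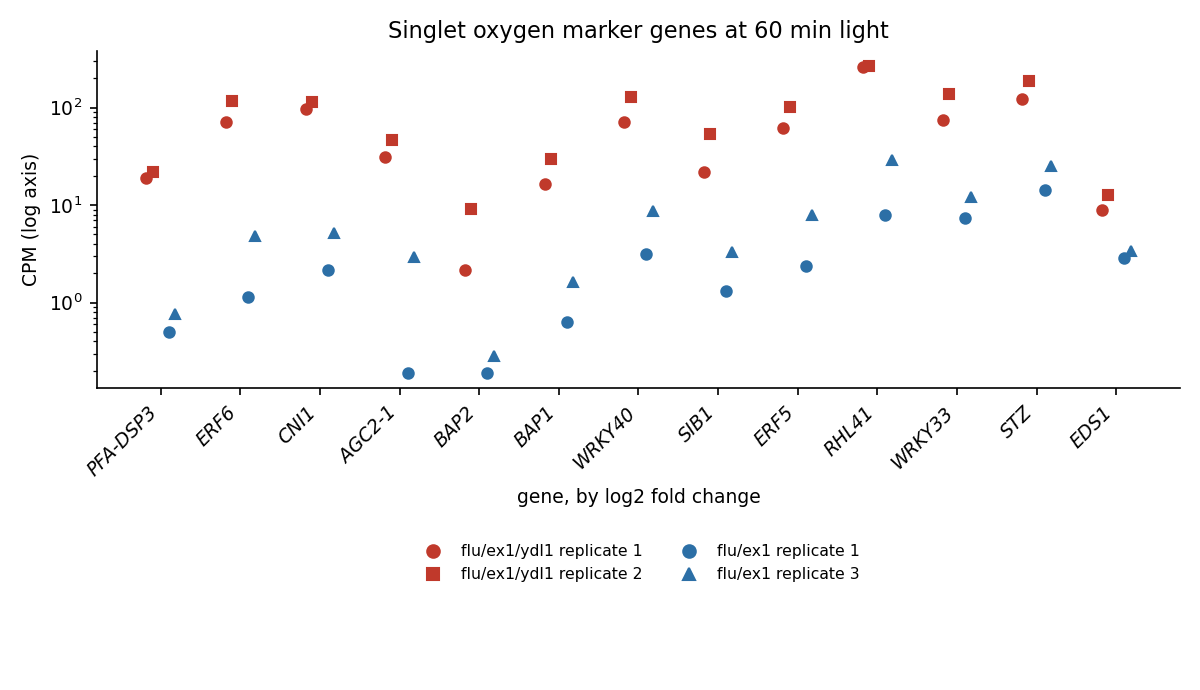
Level of each of the 13 singlet oxygen markers in the 4 libraries at 60 min (CPM, log axis), ordered by log2 fold change, with flu/ex1/ydl1 in red and flu/ex1 in blue. The distance between the genotypes runs from PFA-DSP3 with a log2 fold change of 4.99 to EDS1 with 1.82.

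Promoters of 4 genes that rose are shown because each holds short motifs bound by the factor families described below; they were chosen after their values were seen. PP2-B14 had the largest rise, PFA-DSP3 led the singlet oxygen markers, WRKY33 belongs to the factor family that binds the W box, and FC1 belongs to tetrapyrrole synthesis. Each line gives the 200 bases before the annotated gene start, 5′ to 3′ on the gene's own strand, read from the TAIR10.1 reference with its own annotation, while the counts were made on TAIR10. Capitals mark matches on either strand to TTGAC (W box, bound by WRKY factors), GCCGCC (GCC box, bound by ethylene response factors), CGCGTT (rapid stress response element) and CACGTG (G box).
PP2-B14: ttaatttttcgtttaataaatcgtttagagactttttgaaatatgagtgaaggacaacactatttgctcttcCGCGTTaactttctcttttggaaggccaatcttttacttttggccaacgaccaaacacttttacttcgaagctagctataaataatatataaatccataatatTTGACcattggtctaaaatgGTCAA
PFA-DSP3: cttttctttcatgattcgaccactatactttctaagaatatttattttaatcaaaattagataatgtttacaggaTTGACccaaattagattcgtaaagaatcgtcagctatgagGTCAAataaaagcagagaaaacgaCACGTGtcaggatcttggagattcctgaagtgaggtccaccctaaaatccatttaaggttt
WRKY33: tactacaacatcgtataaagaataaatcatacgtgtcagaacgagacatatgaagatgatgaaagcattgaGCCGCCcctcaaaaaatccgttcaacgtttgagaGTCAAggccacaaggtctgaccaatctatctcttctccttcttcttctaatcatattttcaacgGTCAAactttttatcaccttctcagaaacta
FC1: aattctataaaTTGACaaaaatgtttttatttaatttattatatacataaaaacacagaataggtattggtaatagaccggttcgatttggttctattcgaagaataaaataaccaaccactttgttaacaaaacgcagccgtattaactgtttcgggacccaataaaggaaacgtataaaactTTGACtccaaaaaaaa
In these windows PP2-B14 held 2 W boxes and 1 rapid stress response element, PFA-DSP3 held 2 W boxes and 1 G box, WRKY33 held 2 W boxes and 1 GCC box, and FC1 held 2 W boxes.

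Over the 300 bases upstream of protein-coding genes, the W box was found in 64.5% of the 1440 genes that rose, in 51.3% of the 226 that fell and in 49.8% of all 16631 tested. The rapid stress response element was found in 7.92% of genes that rose, 0.885% of those that fell and 3.35% of all tested. The heat shock element core, GAANNTTC, was in 17.8% of genes that rose, 6.64% of those that fell and 11.4% of all tested. These 3 motifs were thus more frequent upstream of genes that rose than over all genes. The GCC box (2.78% of genes that rose, 0.885% of those that fell, 2.45% of all), the G box (9.86%, 7.52% and 8.05%) and the evening element AAATATCT, a clock motif (6.39%, 5.75% and 5.87%), lay nearer the share of all genes. Matches were counted on both strands, motifs may share letters, and a match is a description of the letters, not a bound site.

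Most of the listed stress transcription factors that were tested rose. Over all genes 8.53% rose and 1.33% fell, and these shares belong beside each list count from here on. Of 17 AP2/ERF factors tested, 14 rose and 0 fell, with a median log2 fold change of 3.05. ERF4, a repressor of the ethylene response, had 250 and 191 CPM in flu/ex1/ydl1, against 22.9 and 30.4 CPM in flu/ex1 (log2 fold change 3.05 ± 0.41, adjusted p = 5.7e-05). ERF11 had 56.3 and 55.5 CPM in flu/ex1/ydl1, against 2.52 and 5.62 CPM in flu/ex1. Both repressors were thus well separated between genotypes, and ERF98 and ERF105 had still larger log2 fold changes of 4.79 and 4.67. The 3 members that missed the threshold were RAP2.6, DDF1 and CBF1, with log2 fold changes of 0.79, 1.00 and 1.58.

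Of 22 WRKY factors listed, 17 were tested, 15 rose and 0 fell, with a median log2 fold change of 2.67. WRKY33, a regulator of camalexin synthesis and defence, had 75.2 and 137 CPM in flu/ex1/ydl1, against 7.38 and 12.1 CPM in flu/ex1 (log2 fold change 3.45 ± 0.40, adjusted p = 1.7e-05). WRKY40, which is often studied with its paralog WRKY18 as a regulator of defence and of plastid and mitochondrial stress genes, had 70.6 and 127 CPM in flu/ex1/ydl1, against 3.16 and 8.64 CPM in flu/ex1. WRKY18 had 28.1 and 63 CPM in flu/ex1/ydl1, against 3.47 and 6.75 CPM in flu/ex1 (log2 fold change 3.17 ± 0.39, adjusted p = 2.8e-05). WRKY6 and WRKY15 had log2 fold changes of 2.75 and 2.72. Of the 17 listed members tested, WRKY29 was the single one with a negative value (-0.78, adjusted p = 0.62). Upstream of the 17 tested WRKY genes, 15 windows held a W box, and upstream of the 13 singlet oxygen markers 10 did.

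Of 12 ZAT and AZF zinc finger repressors listed, 4 (ZAT5, ZAT8, ZAT17 and ZAT18) were left out because the reference did not give their names, and the other 8 rose; their median log2 fold change was 3.08. ZAT6 had 213 and 169 CPM in flu/ex1/ydl1, against 4.42 and 12.2 CPM in flu/ex1 (log2 fold change 4.52 ± 0.54, adjusted p = 2.1e-05). STZ (ZAT10) had 123 and 189 CPM in flu/ex1/ydl1, against 14.3 and 25.1 CPM in flu/ex1. RHL41 (ZAT12) had 262 and 266 CPM in flu/ex1/ydl1, against 7.83 and 28.9 CPM in flu/ex1 (log2 fold change 3.85 ± 0.64, adjusted p = 0.00045). These repressors reached some of the highest levels among the factors named here. Of 12 stress NAC factors tested, 8 rose and 0 fell (median 1.73), and 5 did without flu/ex1 replicate 1. The 4 with the smallest p were all of the ATAF subgroup, which acts in stress and senescence. ATAF1 had 264 and 192 CPM in flu/ex1/ydl1, against 20.8 and 38.4 CPM in flu/ex1, and ATAF2 had 91.7 and 138 CPM in flu/ex1/ydl1, against 7.005 and 13.1 CPM in flu/ex1. NAC102 and NAC032 had log2 fold changes of 3.48 and 3.57. NAC017, the membrane-bound factor that acts in mitochondrial retrograde signalling, had 6.79 and 9.89 CPM in flu/ex1/ydl1, against 8.08 and 7.24 CPM in flu/ex1, with overlapping genotypes.

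Genes that respond to disturbed mitochondria rose, 7 of 7 tested (UPOX was left out because the reference did not give its name), with a median log2 fold change of 3.25. AOX1A, the main alternative oxidase of leaves, had 42.5 and 43.2 CPM in flu/ex1/ydl1, against 4.73 and 10.8 CPM in flu/ex1 (log2 fold change 2.47 ± 0.34, adjusted p = 7.7e-05). DIC2, a mitochondrial dicarboxylate carrier, had 199 and 258 CPM in flu/ex1/ydl1, against 12.9 and 24.8 CPM in flu/ex1. Its relative UCP5 (DIC1) had 147 and 162 CPM in flu/ex1/ydl1, against 12.6 and 19.96 CPM in flu/ex1. BCS1, an outer mitochondrial membrane AAA protein, had 15.2 and 18.18 CPM in flu/ex1/ydl1, against 0.947 and 1.76 CPM in flu/ex1 (log2 fold change 3.63 ± 0.34, adjusted p = 3.6e-06). In all 4 of these genes flu/ex1 replicate 3 stood above flu/ex1 replicate 1.

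Kinase and calcium signalling genes rose in part. Of 17 members of the MAP kinase cascade and related kinases, 10 rose and 0 fell, with a median log2 fold change of 1.43. MPK3, a stress-activated MAP kinase, had 139 and 179 CPM in flu/ex1/ydl1, against 13.2 and 15.5 CPM in flu/ex1 (log2 fold change 3.47 ± 0.33, adjusted p = 3.7e-06). MKK9, a MAP kinase kinase able to activate MPK3 and MPK6, had 168 and 125 CPM in flu/ex1/ydl1, against 8.46 and 15.9 CPM in flu/ex1. MPK11 and the calcium-dependent kinase CPK28, a negative regulator of immune signalling, had log2 fold changes of 3.76 and 3.45. The MAP kinases MPK6 and MPK4 did not pass (log2 fold changes 0.21 and -0.22, adjusted p = 0.702 and 0.709). Of 13 calcium and touch genes tested, 8 rose and 0 fell (median 2.49). TCH3, a calmodulin-like protein, had 180 and 326 CPM in flu/ex1/ydl1, against 26.5 and 40.4 CPM in flu/ex1 (log2 fold change 2.92 ± 0.33, adjusted p = 1.5e-05). CML38, a close relative of CML37, had 37.4 and 69.7 CPM in flu/ex1/ydl1, against 1.39 and 6.54 CPM in flu/ex1. Calcium sensors thus included both the strongly changed CML37 and CML38 and members such as CML41, with a log2 fold change of 0.01.

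Hormone genes differed by pathway. Of 16 jasmonate synthesis and turnover genes tested, 9 rose and 0 fell, with a median log2 fold change of 1.76. LOX3 and LOX4, lipoxygenases of the first step, had 31.4 and 30.9 CPM (LOX3) and 62.5 and 105 CPM (LOX4) in flu/ex1/ydl1, against 2.02 and 3.94 CPM (LOX3) and 3.91 and 9.42 CPM (LOX4) in flu/ex1. AOC3, an allene oxide cyclase, and OPCL1, a peroxisomal CoA ligase, had log2 fold changes of 3.71 and 3.13. OPR3, which reduces the cyclic precursor, had 50.6 and 44.95 CPM in flu/ex1/ydl1, against 6.12 and 10.96 CPM in flu/ex1 (log2 fold change 2.48 ± 0.29, adjusted p = 1.6e-05). LOX2, the abundant plastid lipoxygenase, did not pass (-0.12, adjusted p = 0.854). The pathway thus rose through some isoforms and not others. Of 12 JAZ repressors and MYC2 tested, 8 rose and 0 fell (median 1.72), and 4 did without flu/ex1 replicate 1. JAZ1 had 26.4 and 31.2 CPM in flu/ex1/ydl1, against 2.97 and 6.89 CPM in flu/ex1, and JAZ6 had 35.9 and 51.5 CPM in flu/ex1/ydl1, against 8.27 and 14.1 CPM in flu/ex1. MYC2, the activator that JAZ proteins hold back, had a log2 fold change of 1.87, and JAZ5 one of 3.19.

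Of 16 salicylate and immune genes tested, 11 rose and 0 fell, with a median log2 fold change of 1.83, but 7 did without flu/ex1 replicate 1, 6 without flu/ex1/ydl1 replicate 2 and 5 with the 2 libraries timed alike in both records. CBP60G and SARD1, paired activators of salicylate synthesis, had 35.4 and 33.8 CPM (CBP60G) and 23.9 and 33.5 CPM (SARD1) in flu/ex1/ydl1, against 3.16 and 5.83 CPM (CBP60G) and 4.17 and 4.64 CPM (SARD1) in flu/ex1. EDS5, the plastid exporter of the salicylate precursor, had 15.4 and 14.7 CPM in flu/ex1/ydl1, against 2.33 and 2.88 CPM in flu/ex1 (log2 fold change 2.52 ± 0.30, adjusted p = 1.8e-05). ICS1, the isochorismate synthase itself, had a log2 fold change of 1.28 and missed the threshold (adjusted p = 0.0516). NPR3, a salicylate receptor, had a log2 fold change of 2.38. The regulators thus passed where the enzyme did not, and the difference between them was not tested.

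Of 11 ethylene genes tested, 3 rose and 0 fell, against 8.53% higher and 1.33% lower over all genes. Their median log2 fold change was 0.46. All 3 were synthesis genes, ACS6, ACS7 and ACS11, members of the family that makes the ethylene precursor. ACS6 had 92.7 CPM in each flu/ex1/ydl1 library, against 20.7 and 32.9 CPM in flu/ex1 (log2 fold change 1.79 ± 0.35, adjusted p = 0.0018). ACS6 and ACS11 lost their calls without flu/ex1 replicate 1. The receptors ETR1, ERS1 and ERS2 lay between -0.23 and 0.14 and did not pass. Of 18 abscisic acid genes tested, 4 rose and 0 fell (median 0.49), 2 of them without flu/ex1 replicate 1. NCED3, the rate-limiting synthesis step, had 24.8 and 20.5 CPM in flu/ex1/ydl1, against 4.99 and 5.20 CPM in flu/ex1 (log2 fold change 2.15 ± 0.25, adjusted p = 2.0e-05). CYP707A3, which degrades the hormone, had 16.1 and 27.1 CPM in flu/ex1/ydl1, against 2.65 and 3.65 CPM in flu/ex1 (log2 fold change 2.79 ± 0.36, adjusted p = 4.8e-05). The phosphatases ABI1 and HAI1 were the others that rose, so genes for synthesis, breakdown and inhibition of the hormone response were all among them.

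Growth hormone genes moved both ways. Of 10 gibberellin genes tested, 2 rose and 1 fell, against 8.53% higher and 1.33% lower over all genes. Their median log2 fold change was -0.37. GA2OX6 and GA2OX2, which inactivate gibberellin, had 19.7 and 18.1 CPM (GA2OX6) and 7.33 and 12.1 CPM (GA2OX2) in flu/ex1/ydl1, against 1.26 and 2.39 CPM (GA2OX6) and 2.335 and 2.6 CPM (GA2OX2) in flu/ex1. GID1B, a gibberellin receptor, fell and is taken up with its neighbours below. Of 16 auxin-responsive and cell expansion genes tested, 0 rose and 3 fell (median -0.32), namely the growth genes SAUR14, SAUR16 and SAUR24; 1 of them passed without flu/ex1/ydl1 replicate 2, and 0 of the 16 passed with the 2 libraries timed alike in both records. SAUR14 (AT4G38840) had 13.4 and 8.52 CPM in flu/ex1/ydl1, against 32.9 and 30.2 CPM in flu/ex1 (log2 fold change -1.55 ± 0.28, adjusted p = 0.0011). SAUR16 (AT4G38860) had 10.4 and 8.21 CPM in flu/ex1/ydl1, against 19.4 and 21.3 CPM in flu/ex1. SAUR genes are close paralogs, and how reads that match several of them were counted is not given in the sources used here.

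Heat shock genes rose together, 14 of 17 tested with 0 falling and a median log2 fold change of 2.52. HSP101, the cytosolic disaggregase, had 54.1 and 55.4 CPM in flu/ex1/ydl1, against 2.27 and 8.01 CPM in flu/ex1 (log2 fold change 3.42 ± 0.44, adjusted p = 3.9e-05). HSP90.1 had 62.9 and 46.2 CPM in flu/ex1/ydl1, against 3.41 and 10.8 CPM in flu/ex1, and Fes1A, a cofactor of HSP70, had 101 and 79.2 CPM in flu/ex1/ydl1, against 9.66 and 17.3 CPM in flu/ex1. Of the regulators, HSF A4A had 36.1 and 73.4 CPM in flu/ex1/ydl1, against 4.67 and 10.3 CPM in flu/ex1, while HSFA2 had 53.8 and 45.6 CPM in flu/ex1/ydl1, against 2.15 and 15.2 CPM in flu/ex1. Flu/ex1 replicate 3 exceeded replicate 1 in 17 of 17 of these genes.

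Of 16 tau glutathione transferases tested, which conjugate glutathione to reactive compounds, 6 rose and 0 fell, with a median log2 fold change of 0.89. GSTU13 had 28.6 and 43.5 CPM in flu/ex1/ydl1, against 11.11 and 11.03 CPM in flu/ex1 (log2 fold change 1.71 ± 0.28, adjusted p = 0.00036). GSTU7 had 26.6 and 43.2 CPM in flu/ex1/ydl1, against 0.947 and 8.92 CPM in flu/ex1, a wide spread within flu/ex1. The count for this family moved between 1 without flu/ex1 replicate 1 or flu/ex1/ydl1 replicate 2 and 12 without flu/ex1/ydl1 replicate 1. Of 16 antioxidant enzymes and ferritins, 2 rose and 0 fell (median 0.16), a count near the 8.53% of all genes that rose, and 0 passed without flu/ex1 replicate 1, flu/ex1 replicate 3 or flu/ex1/ydl1 replicate 2. The 2 were APX1, cytosolic ascorbate peroxidase, with 218 and 265 CPM in flu/ex1/ydl1, against 130 and 126 CPM in flu/ex1, and VTC5, of ascorbate synthesis, with 42.7 and 45.9 CPM in flu/ex1/ydl1, against 22.7 and 24.6 CPM in flu/ex1. Of 6 indolic defence genes tested, 4 rose and 0 fell (median 1.92), and 2 did without flu/ex1 replicate 1 or replicate 3. CYP81F2, which modifies indole glucosinolates, had 13.2 and 21.1 CPM in flu/ex1/ydl1, against 1.14 and 1.20 CPM in flu/ex1 (log2 fold change 3.89 ± 0.39, adjusted p = 5.1e-06), and MYB51, a regulator of that pathway, had a log2 fold change of 2.88.

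A separate list held regulators of singlet oxygen signalling and cell death, among them FLU, EX1, EX2, MC1 and LSD1. OXI1, BAP1 and BAP2, which rose, were counted with the singlet oxygen markers instead. Of 9 regulators tested, 0 rose and 0 fell by edgeR's quasi-likelihood test, against 8.53% higher and 1.33% lower over all genes. With 9 genes that count is near those shares. The median log2 fold change of the 9 was -0.16. The nearest was MC1, a metacaspase that promotes cell death, with 7.15 and 8.37 CPM in flu/ex1/ydl1, against 3.66 and 4.92 CPM in flu/ex1 (log2 fold change 0.87 ± 0.27, adjusted p = 0.0505), and 1 member passed with the other scaling of library sizes. LSD1, its antagonist, had 14.1 and 11.6 CPM in flu/ex1/ydl1, against 7.20 and 7.94 CPM in flu/ex1 (log2 fold change 0.75 ± 0.28, adjusted p = 0.121).

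In tetrapyrrole synthesis, the pathway that makes the photosensitiser, 2 of 27 genes tested rose and 0 fell, with a median log2 fold change of -0.50. That count of rises was near the 8.53% of all genes that rose. Negative values were found in 22 of 27, against 9533 of 17879 over all genes. The 2 that rose were FC1 and HEMA2, stress-responsive isoforms of the pathway's heme branch and first step. FC1, a ferrochelatase, had 154 and 163 CPM in flu/ex1/ydl1, against 18.18 and 28.39 CPM in flu/ex1 (log2 fold change 2.77 ± 0.29, adjusted p = 7.1e-06), with 126 bases shared with AT5G26038 on the same strand. HEMA2, a glutamyl-tRNA reductase, had 26.1 and 24.4 CPM in flu/ex1/ydl1, against 3.53 and 3.79 CPM in flu/ex1 (log2 fold change 2.78 ± 0.33, adjusted p = 2.1e-05). Their sister isoforms in green tissue did not pass. FC2 had 24.1 and 18.3 CPM in flu/ex1/ydl1, against 36.7 and 33.7 CPM in flu/ex1 (log2 fold change -0.74 ± 0.24, adjusted p = 0.07), and HEMA1 had 85.4 and 110 CPM in flu/ex1/ydl1, against 113 and 124 CPM in flu/ex1 (log2 fold change -0.27 ± 0.26, adjusted p = 0.61). PORB, which reduces protochlorophyllide in the light, had 20.4 and 21.9 CPM in flu/ex1/ydl1, against 48.2 and 28.4 CPM in flu/ex1 (log2 fold change -0.86 ± 0.28, adjusted p = 0.0625). Without flu/ex1/ydl1 replicate 2, 2 genes of the pathway passed as lower, and without flu/ex1 replicate 3 there was 1.

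**Figure D3:**
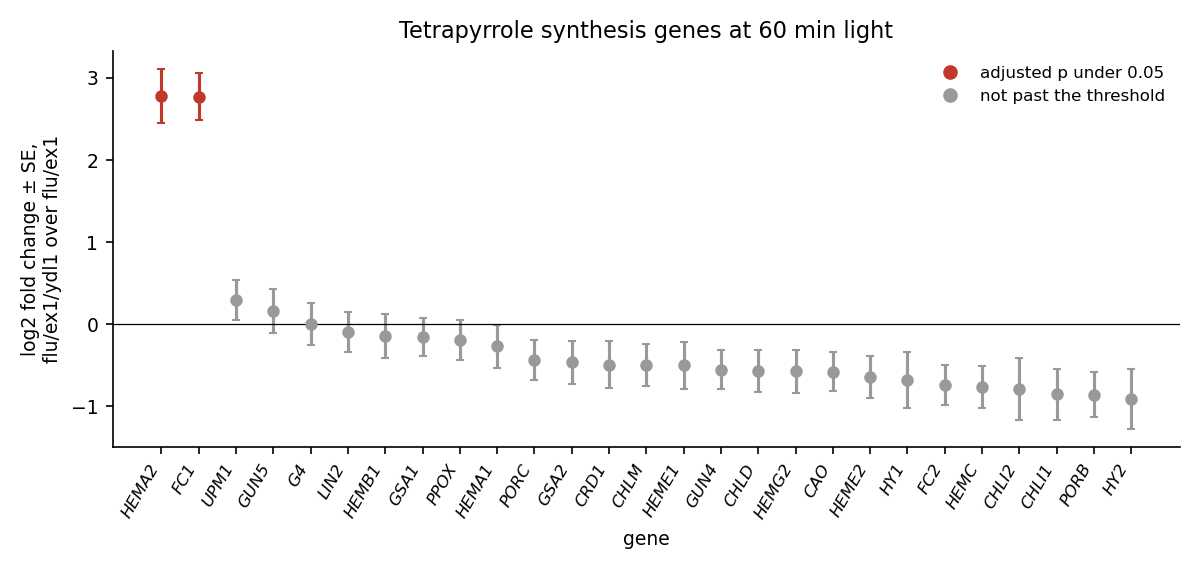
Log2 fold change ± SE, flu/ex1/ydl1 over flu/ex1, of each of the 27 tetrapyrrole synthesis genes tested at 60 min, with genes past the threshold in red. HEMA2 (2.78) and FC1 (2.77) stand above the rest, which lie between -0.91 and 0.29.

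Of 18 nuclear light-harvesting genes, 0 rose and 0 fell by edgeR's quasi-likelihood test, against 8.53% higher and 1.33% lower over all genes. With 18 genes that count is near those shares. Their median log2 fold change was -0.13, with values from -0.60 to 0.27. Of 15 light signalling and photoprotection genes, 2 rose and 1 fell (median -0.01, or 0.01 with the other scaling of library sizes), against 8.53% higher and 1.33% lower over all genes. BBX32, a B-box repressor of photomorphogenesis, had 38.6 and 39.5 CPM in flu/ex1/ydl1, against 10.7 and 10.5 CPM in flu/ex1 (log2 fold change 1.88 ± 0.26, adjusted p = 9.4e-05). BZS1, a B-box protein of brassinosteroid signalling, had 9.11 and 6.69 CPM in flu/ex1/ydl1, against 3.28 and 3.02 CPM in flu/ex1, and lost its call without flu/ex1 replicate 1, flu/ex1 replicate 3 or flu/ex1/ydl1 replicate 1. ELIP1, an early light-induced photoprotective protein, had 72.2 and 54.8 CPM in flu/ex1/ydl1, against 150 and 124 CPM in flu/ex1 (log2 fold change -1.11 ± 0.26, adjusted p = 0.0084), and lost its call without flu/ex1 replicate 1 or flu/ex1/ydl1 replicate 2. HY5, the central activator of light responses, did not pass (-0.45, adjusted p = 0.339).

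In flavonoid synthesis 0 of 10 genes rose and 1 fell, against 8.53% higher and 1.33% lower over all genes. The median log2 fold change of these genes was -0.86. Negative values were found in 10 of 10, against 9533 of 17879 over all genes. The 1 was DFR, a late enzyme of anthocyanin synthesis, with 8.04 and 5.93 CPM in flu/ex1/ydl1, against 19.1 and 14.2 CPM in flu/ex1 (log2 fold change -1.28 ± 0.32, adjusted p = 0.0128). The number called was 0 without flu/ex1 replicate 1 or flu/ex1/ydl1 replicate 2, and 3 without flu/ex1/ydl1 replicate 1. Of 8 chloroplast development and PIF factors, 0 rose and 2 fell (median -0.65), namely the GATA factors GNC and CGA1, which promote greening. GNC had 14.5 and 9.73 CPM in flu/ex1/ydl1, against 31.8 and 25.0 CPM in flu/ex1 (log2 fold change -1.25 ± 0.27, adjusted p = 0.0039), and CGA1 had 1.25 and 3.50 CPM in flu/ex1/ydl1, against 8.84 and 6.39 CPM in flu/ex1. Both calls were lost without flu/ex1 replicate 1, and 1 of them without flu/ex1/ydl1 replicate 2. Of 15 clock genes, 0 rose and 1 fell (median 0.21), counts near the shares of all genes. The 1 was the morning factor RVE1 (-0.89 ± 0.27, adjusted p = 0.0473), whose call was lost, among other alternatives, with DESeq2 and with only the 4 libraries compared. Of 8 dark and sugar starvation genes tested, 4 rose and 0 fell (median 0.94), and the smallest p was that of the starvation-responsive factor bZIP1, with 11.3 and 14.7 CPM in flu/ex1/ydl1, against 4.54 and 4.43 CPM in flu/ex1. Of these, 1 passed without flu/ex1 replicate 1 or flu/ex1/ydl1 replicate 2, and 0 with the 2 libraries timed alike in both records.

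Over the 29 lists together, 362 distinct genes were tested, of which 147 rose and 9 fell, and 7 members stood in more than 1 list. Over all genes, 8.53% rose and 1.33% fell. The lists were chosen with earlier results of these data known. The 9 that fell numbered 4 without flu/ex1 replicate 1.

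The largest falls were of another kind, in that the first 3 genes were as low before light. GID1B had 1 read in flu/ex1/ydl1 and 127 in flu/ex1 at 60 min (flu/ex1 over flu/ex1/ydl1 ratio 79.2, exact 95% counting interval 14 to 3154). MRD1 had 2 reads in flu/ex1/ydl1 and 177 in flu/ex1 (flu/ex1 over flu/ex1/ydl1 ratio 55.2, interval 15.1 to 460). AT3G63052 had 8.58 and 1.52 CPM in flu/ex1/ydl1, against 165 and 273 CPM in flu/ex1 (log2 fold change -5.59 ± 0.69, adjusted p = 2.9e-05). At 0 min and 30 min the log2 fold changes were -4.86 and -5.90 for GID1B, -4.88 and -4.78 for MRD1, and -6.42 and -7.51 for AT3G63052. MRD1 shares 1446 annotated bases with HEI10. The other 9 of the 12 largest falls, AT5G40530, AT2G29300, AT3G61490, AT1G29500, AT1G49205, AT1G60590, AT5G44490, MEE49 and AT4G30250, had log2 fold changes between -3.08 and -2.13 at 60 min and between -0.90 and 0.71 at 0 min. These 9 stood under 10 CPM in all 4 libraries, and AT1G60590, which held the highest single value, had 1.61 and 1.45 CPM in flu/ex1/ydl1, against 8.71 and 5.13 CPM in flu/ex1.

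GID1B and AT3G63052 lie 5 loci apart on chromosome 3, and 2 further loci between and beside them, MBD4 and EDL3, had fewer reads in flu/ex1/ydl1 as well. Summed over the 6 libraries of each genotype, GID1B had 3 reads in flu/ex1/ydl1 and 248 in flu/ex1. These sums and those below are raw reads, not scaled to library size, so small differences between genotypes cannot be read from them. MBD4, a methyl-CpG-binding domain protein, had 1 read in flu/ex1/ydl1 and 57 in flu/ex1, AT3G63052 had 189 in flu/ex1/ydl1 and 22038 in flu/ex1, and EDL3, an F-box protein, had 0 in flu/ex1/ydl1 and 27 in flu/ex1. At 60 min alone EDL3 had 0 reads in flu/ex1/ydl1 and 17 in flu/ex1, at least 3.54-fold lower with a floor of 3 counts over the group. The nearest well-counted loci on either side did not share this, since NPL41 had 213 reads in flu/ex1/ydl1 and 258 in flu/ex1, and AT3G63070 had 288 in flu/ex1/ydl1 and 205 in flu/ex1. Over the 6 libraries AT3G63052 reached at most 68 reads in a flu/ex1/ydl1 library, and no fewer than 2612 in a flu/ex1 library. Around MRD1, with 10 reads in flu/ex1/ydl1 and 438 in flu/ex1 over 6 libraries each, the following loci were counted in both genotypes. The overlapping HEI10 had 17 in flu/ex1/ydl1 and 48 in flu/ex1, MSL4 had 15 and 24, and MUM4 had 359 and 463. AT1G53430 had 1854 in flu/ex1/ydl1 and 876 in flu/ex1, and AT1G53440 had 1571 and 516. Genomic DNA was not measured in the files used here.

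**Figure D4:**
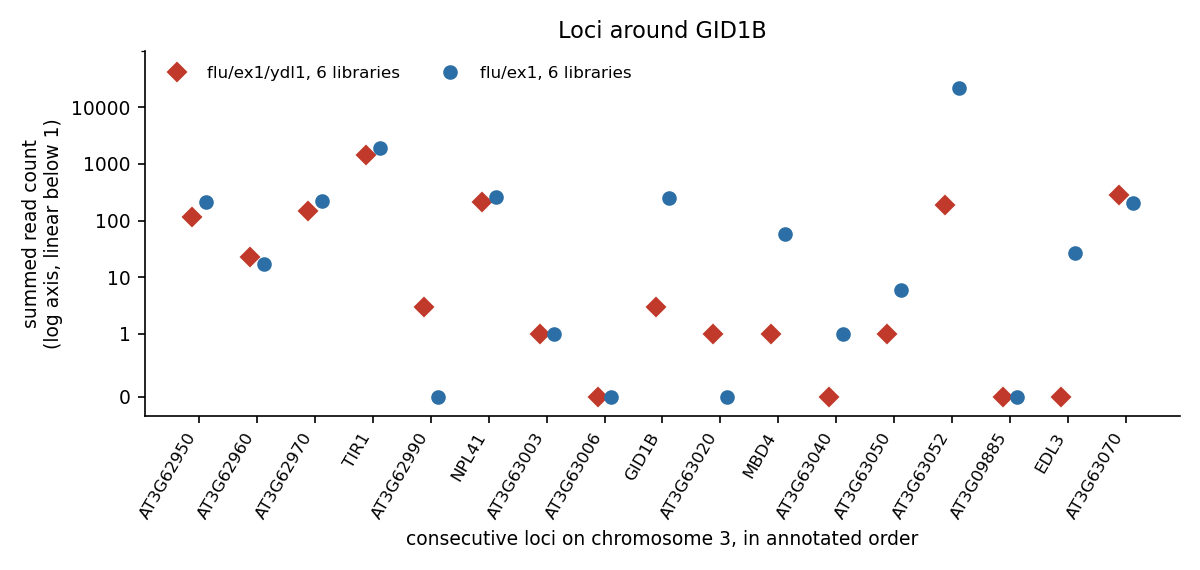
Read counts summed over the 6 libraries of each genotype (log axis, linear below 1) at consecutive loci on chromosome 3 around GID1B, with flu/ex1/ydl1 as red diamonds and flu/ex1 as blue circles. GID1B (3 and 248 reads), MBD4 (1 and 57), AT3G63052 (189 and 22038) and EDL3 (0 and 27) are lower in flu/ex1/ydl1 than in flu/ex1. NPL41 (213 and 258) and AT3G63070 (288 and 205) on either side are well counted in both. The sums are not scaled to library size.

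Few genes passed before light, and part of those that rose at 60 min had already risen at 30 min. At 0 min 2 genes (0.0112%) passed by edgeR's quasi-likelihood test, AT3G63052 and MRD1, both lower. At 30 min 700 genes (3.92%) passed, 637 of them higher (3.56%), and 613 of the 700 passed in the same direction at 60 min. Of the 1525 genes that rose at 60 min, 583 passed as higher at 30 min. The 1525 genes that rose at 60 min had median log2 fold changes of 0.10 at 0 min, 1.13 at 30 min and 2.02 at 60 min. The 238 that fell had medians of -0.10 at 0 min, -0.58 at 30 min and -1.21 at 60 min. Both sets thus ran in the same order with light, as medians of genes chosen at the last time. Tested directly, the genotype difference at 60 min differed from that at 0 min in 582 genes (3.26%), 557 of them with a higher value at 60 min. That count was 251 without flu/ex1 60 min replicate 1, and 345, 366, 373 and 230 when the libraries at 0 min were left out in turn. For 60 min against 30 min, edgeR's quasi-likelihood test called 0 genes, with 1087 at an unadjusted p under 0.05 and 31 called by DESeq2; without flu/ex1 60 min replicate 3 edgeR called 46, and without flu/ex1/ydl1 60 min replicate 1 it called 6.

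The lists differed in how much of their 60 min value was there at 30 min. The singlet oxygen markers had medians of 0.56 at 0 min, 2.65 at 30 min and 4.07 at 60 min, and 13 of 13 were higher at 30 min. The AP2/ERF factors stood at 0.26, 1.85 and 3.05 over the same times, and the WRKY factors at -0.04, 1.49 and 2.67. The JAZ repressors and MYC2 had a median of 0.14 at 30 min, with 0 members called by edgeR's quasi-likelihood test, against 1.72 at 60 min. The mitochondrial stress genes likewise had 0.90 at 30 min and 3.25 at 60 min, with 3 and 7 members called. Differences between lists in this order were not tested. The genotype difference at 60 min departed from that at 0 min in 10 of the 13 singlet oxygen markers. It did so in 10 of the 17 WRKY factors as well, against 3.26% of all genes. Other lists held fewer, such as 1 of 11 ethylene genes, 1 of 16 tau glutathione transferases and 0 of 8 dark and sugar starvation genes.

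**Figure D5:**
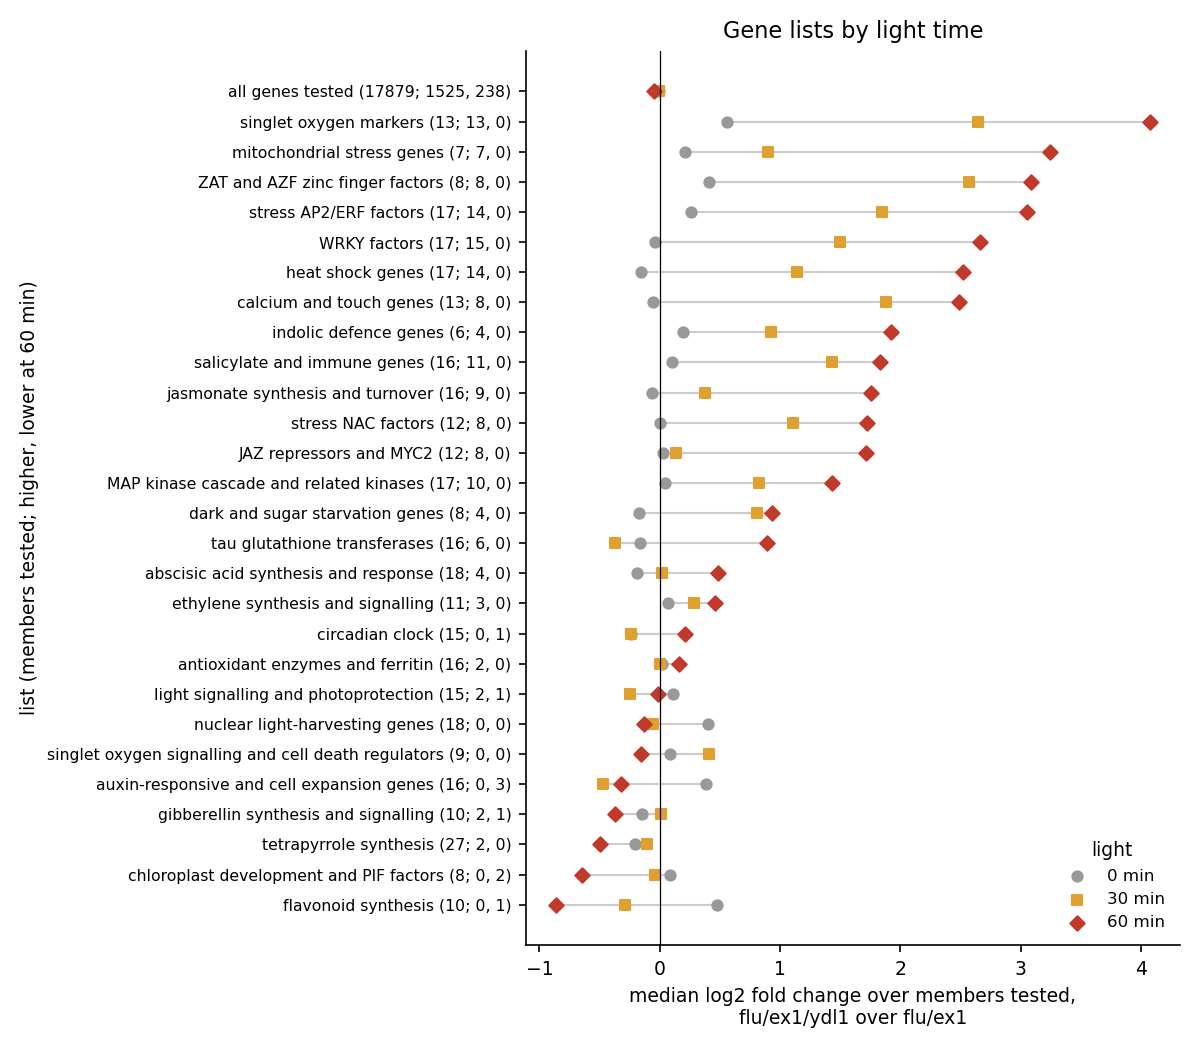
Median log2 fold change, flu/ex1/ydl1 over flu/ex1, over the tested members of each gene list at 0, 30 and 60 min of light, with all genes tested at the top and numbers of members tested, higher and lower at 60 min in brackets. The singlet oxygen markers run from 0.56 at 0 min to 4.07 at 60 min, while the flavonoid genes stand at -0.86 at 60 min.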

How the data were processed

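RNA from whole seedlings was sequenced in 12 libraries (2 genotypes, 3 light times, 2 libraries each). The authors deposited raw read counts per locus, made with Trimmomatic, FastQC, TopHat2 2.1.1 and featureCounts on TAIR10, per the submitters' processing notes; strand and multiple-match settings are not given in the sources used here. Loci in the tables numbered 36917, of which 36632 matched the TAIR10.1 annotation, used for names and promoters.

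Groups were taken from the light time in the names of the deposited tables. The deposited counts of all 12 libraries entered 1 edgeR 4.0.16 quasi-likelihood fit (R 4.3.3, TMM scaling, filterByExpr with a minimum count of 10 and total of 15), with 6 residual degrees of freedom, Benjamini-Hochberg adjustment over 17879 genes and a threshold of 0.05. CPM values use the TMM-scaled library size. The procedure was tested on simulated counts. The alternatives used other light times, DESeq2 1.42.0, other scaling, no filter, nuclear genes, fewer libraries and a replicate block. Exact 95% counting intervals and the floor of 3 counts cover counting error only. Depth was 7859611 to 11591060 counts per library.

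Named genes were FLU, EX1 and EX2, the 12 largest rises and 12 largest falls (mean of at least 1 CPM, no overlap between genotypes), up to 4 passing members with the smallest p in each list, and neighbours of named genes with 3 or fewer reads in flu/ex1/ydl1; other names were chosen after their values were seen. The comparison and the 29 gene lists (439 entries, after 10 were dropped whose name the reference did not give) were chosen with earlier results of these data known. Of the 107 named genes, 31 share annotated bases with another locus.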

Additional observations from a re-analysis of the deposited data

Results flagged for a closer look

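The genotype difference depended on the light time. It differed between 60 min and 0 min in 582 of 17879 genes by edgeR's quasi-likelihood test of that difference with Benjamini-Hochberg adjustment. Among them were 58 of the 107 named genes, 54 with a higher and 4 with a lower value at 60 min. Of the 107, 104 had been named by their change or p at 60 min in the same libraries, so the 58 are no independent support. The values that follow are log2, the genotype difference (flu/ex1/ydl1 over flu/ex1) at 60 min minus that at 0 min.

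Among the 12 largest rises the value was 8.05 for PP2-B14, 6.52 for AT1G56242, 6.19 for PP2-B13, 5.44 for AT1G05575, 4.52 for AT2G32200 and 9.89 for SBT3.3. PP2-B14 had 3 flu/ex1 reads at 60 min, SBT3.3 had 2 and ACS7, given below, had 4, so these values rest on few reads. Among the singlet oxygen markers and the ERF and WRKY factors it was 4.43 for PFA-DSP3, 4.17 for CNI1, 4.07 for ERF6, 3.77 for SIB1, 3.10 for ERF11, 2.49 for ERF4, 2.78 for WRKY6, 3.56 for WRKY33, 2.45 for WRKY15 and 3.50 for WRKY18. For zinc finger, NAC and MYB factors it was 2.35 for STZ, 4.08 for ZAT6, 3.69 for RHL41, 3.31 for ATAF2, 3.28 for NAC032, 3.62 for NAC102, 2.62 for ATAF1 and 2.46 for MYB51. Genes of mitochondrial stress, heat shock and detoxification had values of 2.98 for BCS1, 2.90 for UCP5, 3.24 for DIC2, 2.99 for AOX1A, 2.90 for Fes1A, 3.30 for HSP101, 3.10 for HSF A4A, 1.59 for GSTU13 and 1.34 for VTC5. Kinases and calcium-related genes had 2.82 for CPK28, 3.26 for MPK3, 4.97 for MPK11, 2.75 for MKK9, 2.80 for TCH3, 2.80 for CBP60G and 4.16 for CML38. Hormone genes had 2.89 for LOX3, 3.81 for LOX4, 3.24 for OPCL1, 2.77 for JAZ1, 2.04 for JAZ6, 2.21 for SARD1, 2.70 for NPR3, 4.48 for ACS7, 2.28 for NCED3, 2.42 for CYP707A3, 3.95 for GA2OX6 and 2.03 for GA2OX2. In tetrapyrrole synthesis the value was 2.97 for FC1 and 3.01 for HEMA2. The 4 negative values, all of genes lower in flu/ex1/ydl1 at 60 min, were -3.79 for AT5G40530, -3.08 for AT1G29500, -1.93 for AT4G38840 and -1.44 for AT4G38860. The last 3 of these belong to the SAUR growth genes.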

How the results depend on the processing

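Light times from the labels changed most. With them, edgeR called 0 genes at 60 min (0 higher, 0 lower), 0 for 60 min against 0 min, and 0 list members higher and 0 lower. DESeq2 with those times, added after seeing the data, called 312 (282 higher, 30 lower), 0 for 60 min against 0 min, and 22 list members higher and 2 lower. Genes lower numbered 238 in the result reported, against 127 with only the 4 libraries compared, 134 with DESeq2 and 416 with no filter. For 60 min against 0 min (582) they were 885 with no filter and 334 with the replicate block, and for 60 min against 30 min (0) they were 31 with DESeq2, 120 with no filter and 49 with the 2 libraries timed alike. Lower list members (9) were 16 with no filter and 5 with those 2 libraries. Leaving out each library in turn gave 942 to 1894 genes (890 to 1620 higher, 52 to 384 lower), 230 to 710 for 60 min against 0 min, 0 to 46 for 60 min against 30 min, and 100 to 156 list members higher and 4 to 10 lower; the lowest total was without flu/ex1 60 min replicate 1. Totals at 60 min were 1562 with only the 4 libraries, 1504 with DESeq2, 1778 with DESeq2's size factors, 2175 with no filter, 1783 with nuclear genes and 1546 with the replicate block.

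None of the 104 named genes that passed reversed in any alternative run. Leaving out the flu/ex1 60 min replicate 1 library cost 27 of them their call, and leaving out replicate 2 of flu/ex1/ydl1 at that time cost 22; the 2 libraries timed alike lost 22, the replicate block 7 and DESeq2 5. Whether replicate numbers pair the samples was not settled. In 19 pairs with the same number, deviations from the group means correlated between -0.236 and 0.332. With 2 libraries per group these values are not independent of each other, so they cannot decide on pairing. With 1 library per genotype timed alike in both records there is no spread between replicates at 60 min. Fits with those 2 libraries therefore borrow their spread from the other light times. Depth limits genes near 0 in one genotype, whose folds carry wide intervals.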

Other observations

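Plastid transcripts, which the comparisons above do not describe, leaned upwards without passing. Of 103 plastid-encoded loci tested at 60 min, 0 rose and 0 fell by edgeR's quasi-likelihood test. Positive log2 fold changes were found in 87 of them, against 8346 of 17879 over all genes. Their median was 0.37, against 0.08 at 30 min and 0.07 at 0 min. Plastid loci took 68.7% and 65.5% of counts in flu/ex1/ydl1, against 63.3% in each flu/ex1 library. Of 52 mitochondrial loci tested, 0 rose and 1 fell, with a median of 0.10. Their share of counts was lower in flu/ex1/ydl1 (0.285% and 0.337%) than in flu/ex1 (0.388% and 0.356%). The log2 fold changes of both organelles rest on TMM factors of 0.705 and 1.2 in flu/ex1/ydl1, against 1.38 and 1.23 in flu/ex1. Whether transcripts were selected by their poly(A) tails is not given in the sources used here.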
